A study of Homo sapiens with 8 samples.

Results

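Interferon-stimulated genes were examined in 2 lines of non-small cell lung cancer, NCI-H1581 and NCI-H1703, together with the derived variants NCI-H1581R and NCI-H1703R that had been made resistant to CPL304110, an inhibitor of fibroblast growth factor receptors (FGFR). The genes were 47 symbols taken as a list of interferon-stimulated genes, and the members were the rows of the gene count table whose Ensembl identifier maps to 1 of them. Of the 47, 43 had a total of 10 or more counts across the 8 libraries, among the 18203 genes of 37441 in the table that passed this filter. IRF7, the sensor of DNA IFI16, the antiviral enzyme RSAD2 and EPSTI1 had fewer than 10 counts in total and were not tested.

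The sensitive variants were the parental lines, and no variant carried an engineered gene. Resistance was selected by exposure to CPL304110 that began at 50 nM and was raised to 2.5 µM for NCI-H1581R and 5 µM for NCI-H1703R, over 4 to 6 months. The resistant variants are drug-selected populations of 1 line each, and whether they were cloned is not stated. NCI-H1581 was grown in DMEM/F12 and NCI-H1703 in RPMI 1640, both with 10% serum, so line and medium cannot be told apart when the lines are compared. The final dose differed between the resistant variants too, so line and dose cannot be told apart when changes with resistance are compared. Total RNA with an integrity number above 7.0 was taken 24 h after a change of medium, from 2 replicates of each variant, and the sources used here do not say whether that medium contained the inhibitor. The replicates are repeat cultures of the same line, so p-values measure the spread between these cultures only.

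Interferons are secreted proteins that cells release when sensors detect foreign or misplaced nucleic acids. Type I and type III interferons act through receptors coupled to Janus kinases, which activate transcription factors such as STAT2. STAT2 acts with IRF9 at the interferon-stimulated response element (ISRE) in the promoters of target genes, whereas type II interferon acts mainly at gamma-activated sites (GAS). Many tumour lines keep some of these genes active without added interferon.

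Library totals ranged from 33800389 to 40031710 counts, so 3 counts, taken as the most that a count of 0 allows, corresponded to 0.0749 to 0.0888 CPM, the count scaled to library size. Intervals and floors cover counting error only. Epithelial keratins were detected in every library, but mostly at low counts. KRT8 had 77 to 269 counts and KRT19 had 30 to 87. KRT18 counted 70 and 43 in NCI-H1581 and 77 and 37 in NCI-H1581R, and EPCAM counted 3 to 26 in the NCI-H1703 libraries. EPCAM fell in NCI-H1581R, with 309 and 284 counts against 537 and 524 (log2 fold change −0.90, adjusted p = 0.0568). In NCI-H1703R, KRT18 had 109 and 94 counts, compared with 2380 and 2188 in its sensitive parent. The leukocyte gene CD3E was at 0 in all 8 libraries, and CD14 had at most 6 counts. The leukocyte gene PTPRC had 2 and 0 counts in NCI-H1581, 15 and 15 in NCI-H1581R and 0 in the NCI-H1703 libraries. LYZ had 8 to 85 counts, and the endothelial genes CDH5, PECAM1 and VWF had at most 1, 18 and 11. The part of these genes in the results was not tested. In bulk RNA, fewer cells that express a gene and less RNA per cell cannot be told apart.

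Promoter stretches of 6 called members are shown first, since their letters hold matches to the core of the ISRE. These are the called members with the largest change in either line whose stretch before the RefSeq start holds an ISRE core outside annotated coding and untranslated regions. Capitals mark each match to the ISRE core, spelled GAAANNGAAA and searched on both strands, so that some matches read in reverse complement. The stretches come from RefSeq on build GRCh38.p14 and are written 5′ to 3′ on the strand of the gene, 170 bases each. They lie at chr2:162318685-162318854 for IFIH1 (minus strand), chr1:78649619-78649788 for IFI44 (plus strand), chr17:78979948-78980117 for LGALS3BP (minus strand), chr10:89327771-89327940 for IFIT3 (plus strand), chr10:89392376-89392545 for IFIT1 (plus strand) and chr1:27672213-27672382 for IFI6 (minus strand). IFIH1, IFI44 and IFIT1 were lower in NCI-H1581R only, whereas LGALS3BP, IFIT3 and IFI6 were lower in NCI-H1581R and higher in NCI-H1703R.
IFIH1: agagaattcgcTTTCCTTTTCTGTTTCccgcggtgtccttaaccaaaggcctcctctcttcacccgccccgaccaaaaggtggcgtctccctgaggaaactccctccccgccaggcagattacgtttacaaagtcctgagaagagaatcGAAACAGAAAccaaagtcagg
IFI44: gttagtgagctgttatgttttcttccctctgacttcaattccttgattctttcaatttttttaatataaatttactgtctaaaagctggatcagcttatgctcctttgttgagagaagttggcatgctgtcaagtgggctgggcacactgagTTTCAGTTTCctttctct
LGALS3BP: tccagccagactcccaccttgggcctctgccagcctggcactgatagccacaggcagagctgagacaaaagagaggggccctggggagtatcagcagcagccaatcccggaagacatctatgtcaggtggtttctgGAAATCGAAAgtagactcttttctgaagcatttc
IFIT3: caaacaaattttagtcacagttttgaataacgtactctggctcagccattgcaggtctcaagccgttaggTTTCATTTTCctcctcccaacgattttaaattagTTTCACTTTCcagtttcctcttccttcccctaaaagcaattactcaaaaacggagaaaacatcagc
IFIT1: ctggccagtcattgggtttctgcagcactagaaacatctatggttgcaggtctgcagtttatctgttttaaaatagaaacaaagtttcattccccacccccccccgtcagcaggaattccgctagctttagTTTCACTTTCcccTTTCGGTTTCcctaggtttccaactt
IFI6: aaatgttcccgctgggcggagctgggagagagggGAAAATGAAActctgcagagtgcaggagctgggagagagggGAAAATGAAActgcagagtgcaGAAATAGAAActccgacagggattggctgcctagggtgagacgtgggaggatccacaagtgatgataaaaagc

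Among the 47 members, 38 had a RefSeq promoter window from 250 bases before to 50 bases after a start. IRF7, IFIT2, OAS2, OASL, MX2, GBP2, IFITM2, USP18 and TRIM22 had none. The ISRE core was found in 26 of the 38 (68.4%), against 4.38% of all 27305 genes with a window. The GAS letters TTCNNNGAA were found in 12 of the 38 (31.6%), against 9.38% of all genes. Of the 12 members with a window that were lower in NCI-H1581R, 11 held the ISRE core, and of the 21 that were not called there, 12 held it. Both members that rose in NCI-H1581R had a window, and of these HERC5 held the core while UBE2L6 did not. In NCI-H1703R the core was found in 6 of 8 members that were higher, in both members with a window that were lower and in 16 of 25 that were not called. Matches to the core thus occurred among members that fell, rose or were not called. A match is a description of the letters and not of a bound site.

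**Figure D1:**
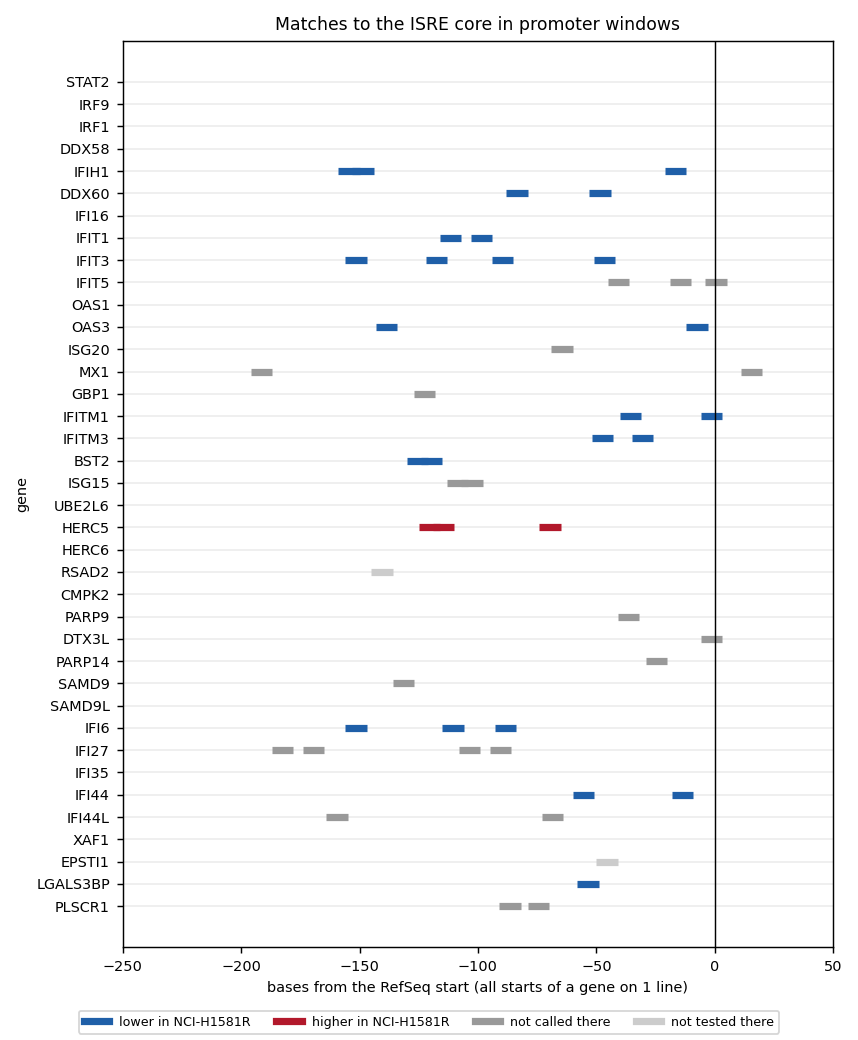
Positions of ISRE core matches in the promoter windows of the 38 members that had one, with bases from the RefSeq start on the horizontal axis and genes on the vertical axis. Each bar is a match, coloured by the call in NCI-H1581R (blue lower, red higher, dark grey not called, light grey not tested), and all starts of a gene share a line. Most bars lie before the start, and bars occur in each of the 4 classes.

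In NCI-H1581R, the interferon-stimulated genes were mostly lower than in sensitive NCI-H1581. At an adjusted p under 0.1, 17 of the 43 members tested fell and 2 rose by the quasi-likelihood test of edgeR, with p-values adjusted after Benjamini and Hochberg over all 18203 genes, and such members are referred to as called. The share that fell was 39.5% against 7.44% of all genes, and the share that rose was 4.65% against 7.63% of all genes. The median log2 fold change of the members was −1.15, against 0.04 over all genes. It was −0.82 with genes at 0 set to their counting bound and genes at or under the floor in both variants set to 0. With the replicate number as a block, 18 fell and 2 rose, against 8.88% and 9.21% of all genes. For fits with a library left out, here and below, the share of all genes called was not counted. The fit had 2 residual degrees of freedom. Without NCI-H1581 replicate 1 it called 11 lower and 0 higher, and without NCI-H1581 replicate 2 it called 9 lower and 1 higher. BST2, DDX60, IFI44, IFIH1, IFITM1, IFITM2, MX2 and OAS2 were called in each of the 4 fits that left out a library, and OASL in 1 of them. Fitted log2 fold changes without NCI-H1581R replicate 1 and without replicate 2 were −7.14 and −4.92 for BST2, −4.10 and −8.13 for DDX60, −4.31 and −8.34 for IFI44 and −1.85 and −4.09 for OASL, all based on 15 or fewer resistant counts per library.

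**Figure D2:**
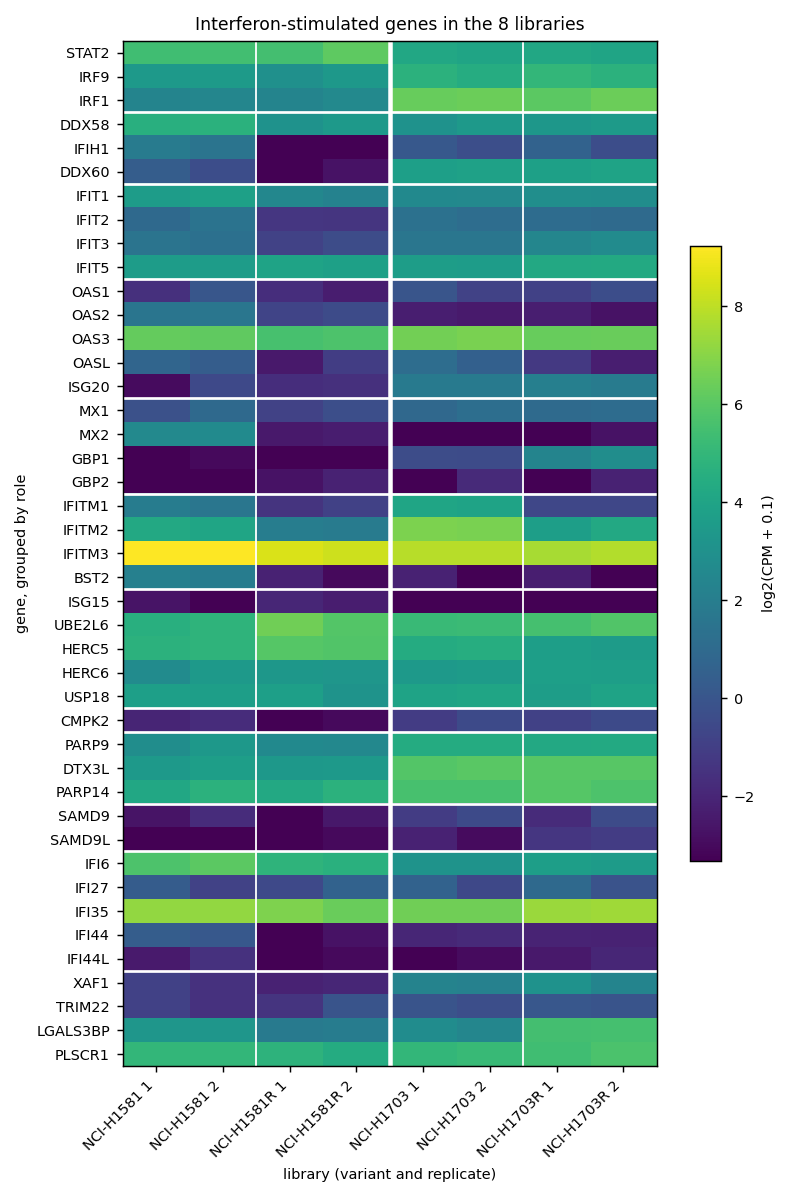
Level of the 43 tested members in the 8 libraries, as log2(CPM + 0.1), with genes grouped by role on the vertical axis and the variant and replicate of each library on the horizontal axis. Colours compare libraries within a gene and a line, because CPM values were scaled within each line and not divided by transcript length. IFIH1, DDX60, MX2, BST2 and IFI44 are dark in both NCI-H1581R libraries and brighter in both NCI-H1581 libraries.

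All 3 tested sensors fell in NCI-H1581R. IFIH1, which encodes MDA5, a sensor of long double-stranded RNA, had 123 and 108 counts in NCI-H1581 and 0 and 0 in NCI-H1581R. It was thus at least 38.4-fold lower, taking 3 counts per library as the floor (adjusted p = 0.00802). DDX60, a helicase linked to RNA sensing, had 42 and 27 counts against 0 and 2, a ratio of 34.3 with a 95% counting interval from 9.13 to 289 (adjusted p = 0.0296). DDX58, which encodes RIG-I, a sensor of RNA with a 5′ triphosphate, had 831 and 1029 counts against 318 and 415, a log2 fold change of −1.40 ± 0.21 (SE, adjusted p = 0.00913). The sensitive and resistant libraries did not overlap for any of the sensors. With 2 libraries per variant, such separation is a description only, here and below, and it was not counted over all genes. It also occurred for members that were not called, such as IFIT5 in this line. In the NCI-H1703 lines DDX60 had 515 and 479 counts against 518 and 579, and no sensor was called there.

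Among the IFIT proteins, which bind foreign RNA and form complexes with each other, 3 of 4 fell in NCI-H1581R. IFIT1, which recognises RNA with an incompletely methylated cap, had 414 and 560 counts in NCI-H1581 and 211 and 180 in its resistant variant (log2 fold change −1.36 ± 0.25, adjusted p = 0.0176). IFIT2 had 64 and 106 counts against 11 and 11 (−2.98 ± 0.56, adjusted p = 0.0213). IFIT3, which stabilises IFIT1 on its target, had 96 and 94 counts against 17 and 26 (−2.19 ± 0.47, adjusted p = 0.033). Each of the 3 was lower in both resistant libraries than in either sensitive one. IFIT5 had 418 and 488 counts against 578 and 543, with a log2 fold change of 0.25 that was not called (adjusted p = 0.51). The exons of IFIT2 and IFIT3 share 65 and 94 bases with LIPA, a lysosomal lipase gene on the opposite strand, and the sources used here do not state whether libraries were stranded. LIPA itself had a log2 fold change of −0.96 in NCI-H1581R (adjusted p = 0.0299) and 0.81 in NCI-H1703R (adjusted p = 0.00533), and its part in the values of IFIT2 and IFIT3 was not tested.

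Of the 2-5A synthetases, enzymes that make the short adenylate chains which activate RNase L, OAS2 and OAS3 fell in NCI-H1581R, and so did OASL, a relative without that activity. OAS2 had 98 and 118 counts against 19 and 25 (log2 fold change −2.34 ± 0.44, adjusted p = 0.021). OAS3 was the most abundant of them, with 2658 and 2878 counts against 1826 and 2042 (−0.57 ± 0.16, adjusted p = 0.078). OASL had 55 and 48 counts against 3 and 15 (−2.56 ± 0.70, adjusted p = 0.0747), a call that was lost with the older quasi-dispersion estimate of edgeR (adjusted p from 0.0317 to 0.117 over the alternatives that kept all libraries, and up to 0.166 with a library left out). OAS1 had 8 and 37 counts against 8 and 4 and was not called (−1.93 ± 0.96, adjusted p = 0.284). Its sensitive libraries differed from each other, and 1 of them equalled a resistant one in counts. In CPM both resistant libraries lay lower, with 0.233 and 0.931 against 0.212 and 0.102. ISG20, an RNA exonuclease, had 1 and 23 counts against 8 and 9, so that the variants overlapped.

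MX2, a dynamin-like protein that restricts retroviruses, showed the lowest adjusted p of all members in NCI-H1581R. It had 206 and 256 counts in NCI-H1581 and 3 and 4 in NCI-H1581R, a ratio of 65.6 with a 95% counting interval from 31.6 to 164 (adjusted p = 0.000484). In the NCI-H1703 lines it had 0, 0, 0 and 2 counts. Its neighbour MX1, which blocks influenza virus, had 26 and 75 counts against 17 and 28 and was not called (log2 fold change −1.21 ± 0.65, adjusted p = 0.323). The genes lie next to each other at chr21:41361999-41409393 and chr21:41420020-41470071. MX1 shares 562 exon bases with TMPRSS2, a gene on the opposite strand that had 16 counts in total. The guanylate-binding proteins GBP1 and GBP2 had at most 1 and 5 counts in the NCI-H1581 libraries.

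All 4 membrane restriction factors fell in NCI-H1581R. BST2, known as tetherin for holding budding virus at the cell surface, had 149 and 152 counts in NCI-H1581 and 5 and 1 in NCI-H1581R, a ratio of 49.8 with a 95% counting interval from 22.6 to 137 (adjusted p = 0.00161). IFITM1, IFITM2 and IFITM3 block the fusion of virus and cell membranes. IFITM1 had 131 and 119 counts against 10 and 17 (log2 fold change −3.26 ± 0.51, adjusted p = 0.0103). IFITM2 had 649 and 655 counts against 146 and 142 (−2.24 ± 0.24, adjusted p = 0.00202). IFITM3 had 20699 and 23240 counts against 13817 and 11982 (−0.82 ± 0.18, adjusted p = 0.0378). The resistant libraries lay below the sensitive ones for all of them, with the smallest change in the most abundant. The IFITM genes stand side by side at chr11:303655-309397 (IFITM2), chr11:310041-315272 (IFITM1) and chr11:319676-329475 (IFITM3), and their sequences are alike enough that reads could be split among them.

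The genes of the ISG15 system did not follow this direction. ISG15 is a ubiquitin-like protein that is attached to other proteins by the conjugating enzyme UBE2L6 and the ligase HERC5. UBE2L6 had 838 and 1151 counts in NCI-H1581 and rose to 3402 and 2325 in the resistant variant (log2 fold change 1.48 ± 0.24, adjusted p = 0.0127). HERC5 had 922 and 1133 counts and rose to 2303 and 2240 (1.09 ± 0.16, adjusted p = 0.00893). Both were higher in each resistant library than in each sensitive one, and they were the only members called higher in this line. ISG15 itself was almost undetected, with 2 and 0 counts in NCI-H1581, 6 and 4 in NCI-H1581R and 0 in all NCI-H1703 libraries. USP18, which removes ISG15 from proteins, had 470 and 527 counts against 513 and 333 and was not called. HERC6 had 226 and 416 counts against 381 and 379, so that the variants overlapped.

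Of the remaining members, IFI6, IFI44 and LGALS3BP fell in NCI-H1581R. IFI6, a small membrane protein with antiviral activity, had 1831 and 2650 counts against 1097 and 974 (log2 fold change −1.15 ± 0.19, adjusted p = 0.014). IFI44 had 41 and 39 counts against 0 and 2, a ratio of 39.7 with a 95% counting interval from 10.6 to 334 (adjusted p = 0.0167). LGALS3BP, a secreted glycoprotein that binds galectins, had 324 and 381 counts against 127 and 147 (−1.42 ± 0.25, adjusted p = 0.0173). No resistant library of these genes reached the level of a sensitive one. IFI35 had 5053 and 5762 counts against 4183 and 3178, a log2 fold change of −0.61 that was not called (adjusted p = 0.115), but was with the replicate block (adjusted p = 0.0738) and by DESeq2 (adjusted p = 0.0284). The factors of the signalling complex were not called, with 1448 and 1743 counts against 1679 and 2719 for STAT2 (0.41 ± 0.24, adjusted p = 0.367) and 366 and 460 against 294 and 395 for IRF9 (−0.31 ± 0.24, adjusted p = 0.495). The exons of IRF9 share 1544 bases with another gene on the same strand, which had 1833 counts in total. The part of that gene in the values of IRF9 was not tested. Neither IRF1, nor the partners PARP9 and DTX3L, nor PARP14, CMPK2, SAMD9, SAMD9L, IFI27, IFI44L, XAF1, TRIM22 or the scramblase PLSCR1 was called in this line.

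In NCI-H1703R, 8 of the 43 members rose and 4 fell. The share that rose was 18.6% against 7.06% of all genes, and the share that fell, 9.3%, was close to the 7.67% of all genes. The median log2 fold change was 0.12 against 0.00 over all genes, and 0.07 with genes at or near 0 counts set as above. With the replicate block, 11 rose and 6 fell, 25.6% and 14%, against 18.2% and 16.7% of all genes. The counts rested on few libraries, with 1 higher and 2 lower without either NCI-H1703 replicate and 3 higher without NCI-H1703R replicate 2.

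The members that fell in NCI-H1703R were IFITM1, IFITM2, OASL and HERC5. IFITM1 had 634 and 521 counts in NCI-H1703 and 20 and 20 in NCI-H1703R (log2 fold change −4.91 ± 0.23, adjusted p = 0.000662). IFITM2 had 4134 and 3507 counts against 478 and 714 (−2.75 ± 0.18, adjusted p = 0.00137). Both were called in each fit that left out a library. IFITM3, with 9078 and 7880 counts against 7105 and 8371, was not called (−0.20 ± 0.10, adjusted p = 0.297), but was with the replicate block (adjusted p = 0.0524). OASL had 80 and 45 counts against 12 and 4 (−3.01 ± 0.63, adjusted p = 0.0419), and HERC5 had 785 and 744 counts against 478 and 444 (−0.80 ± 0.13, adjusted p = 0.0194). The resistant libraries lay below the sensitive ones for both genes, but OASL was called in 1 and HERC5 in 2 of the 4 fits that left out a library.

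Among the members that rose, LGALS3BP and GBP1 changed the most. LGALS3BP had 257 and 179 counts in NCI-H1703 and 1655 and 1756 in NCI-H1703R (log2 fold change 2.90 ± 0.14, adjusted p = 0.000743). GBP1, a GTPase induced mainly by type II interferon, had 25 and 21 counts against 187 and 265 (3.22 ± 0.37, adjusted p = 0.00685). Each resistant value exceeded both sensitive ones several times over. IFI35 had 3400 and 3082 counts against 6073 and 6622 (0.90 ± 0.09, adjusted p = 0.00444). IFIT3 had 111 and 97 counts against 199 and 248 (1.03 ± 0.23, adjusted p = 0.0511), and IFIT5 had 479 and 405 against 704 and 755 (0.65 ± 0.12, adjusted p = 0.032). The variants did not overlap for these 3 genes, but IFIT3 was called in 0 of 4 fits that left out a library, IFIT5 in 1 and IFI35 in 2. GBP1 was called in 2 of these fits and LGALS3BP in all 4.

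The other 3 calls in NCI-H1703R were close to the threshold. UBE2L6 had 1371 and 1241 counts against 1710 and 2166 (log2 fold change 0.49 ± 0.13, adjusted p = 0.0781, from 0.00278 to 0.298 over the alternatives that kept all libraries). IFI6 had 325 and 287 counts against 478 and 451 (0.53 ± 0.14, adjusted p = 0.0829, from 0.0167 to 0.161). PLSCR1, a protein of the inner membrane leaflet and nucleus, had 1190 and 1184 counts against 1541 and 1917 (0.46 ± 0.14, adjusted p = 0.0997, from 0.00227 to 0.214). With a library left out, the adjusted p reached 0.336, 0.336 and 0.391 for UBE2L6, IFI6 and PLSCR1. All 3 were higher in both resistant libraries, and all 3 calls were lost when the 8 libraries were fitted together. With the replicate block, IRF9, PARP14 and XAF1 were also called higher (adjusted p = 0.0496, 0.0671 and 0.0871) and OAS3 lower (0.00942), besides IFITM3.

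**Figure D3:**
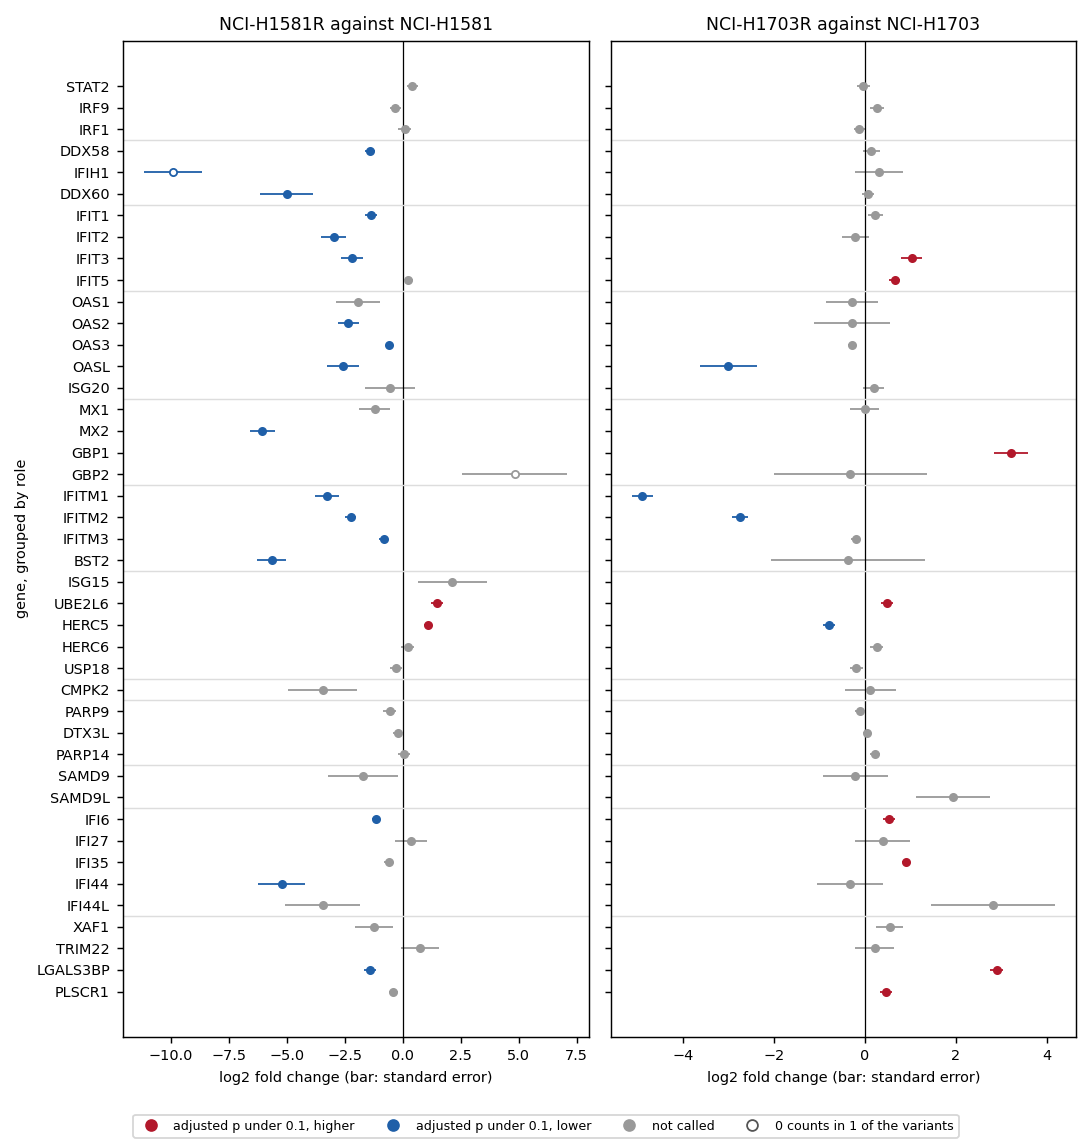
Log2 fold change of each tested member, resistant against sensitive, with NCI-H1581R on the left and NCI-H1703R on the right and bars for the standard error, on horizontal scales that differ between the panels. Red and blue points are called higher and lower, grey points are not called, and open points had 0 counts in both libraries of a variant, so that their position depends on the fit. Members with at most 3 counts in every library of a line have no point. The left panel has 17 blue and 2 red points, and the right panel has 8 red and 4 blue points.

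Set side by side, 3 members fell in both lines, namely IFITM1, IFITM2 and OASL, and UBE2L6 rose in both. IFIT3, IFI6 and LGALS3BP fell in NCI-H1581R and rose in NCI-H1703R, and HERC5 rose in NCI-H1581R and fell in NCI-H1703R. A further 11 members were called in NCI-H1581R only and 4 in NCI-H1703R only (IFIT5, GBP1, IFI35 and PLSCR1), and 20 were called in neither. Calls shared by the lines or opposite between them were not counted over all genes, so these numbers are a description only. Whether the change with resistance differed between the lines was tested as an interaction of line and variant over the 8 libraries. The interaction was called for 13 of 43 members, 30.2% against 15.4% of all genes, and for 15 with the replicate block, against 18.9% of all genes. For 11 of the 13 the change was more positive in NCI-H1703R, and for UBE2L6 and HERC5 it was more positive in NCI-H1581R. The direction of called interactions was not counted over all genes.

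LGALS3BP had the lowest adjusted p of the interaction, with a difference in log2 fold change of 4.29 (adjusted p = 3.89e-05). HERC5 followed with −1.92 (adjusted p = 0.000383), then IFI6 with 1.66 (adjusted p = 0.00289) and IFIT3 with 3.20 (adjusted p = 0.00379). For each of these the sensitive and resistant libraries were separate in both lines and in opposite order. IFI35 differed by 1.48 (adjusted p = 0.00441), IFIT1 by 1.57 (adjusted p = 0.0086), DDX58 by 1.52 (adjusted p = 0.00979) and IFIT2 by 2.75 (adjusted p = 0.0195). IFIH1, DDX60, IFI44 and PLSCR1 were the other called members. IFITM1, IFITM2 and OASL were not called in the interaction by edgeR, nor were MX2 and BST2, whose counts in the NCI-H1703 lines were at most 2 and 5. DESeq2 called it for IFITM1, MX2 and BST2 (adjusted p = 0.0387, 0.000449 and 0.0311) and for IFITM3 (adjusted p = 0.0165).

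**Figure D4:**
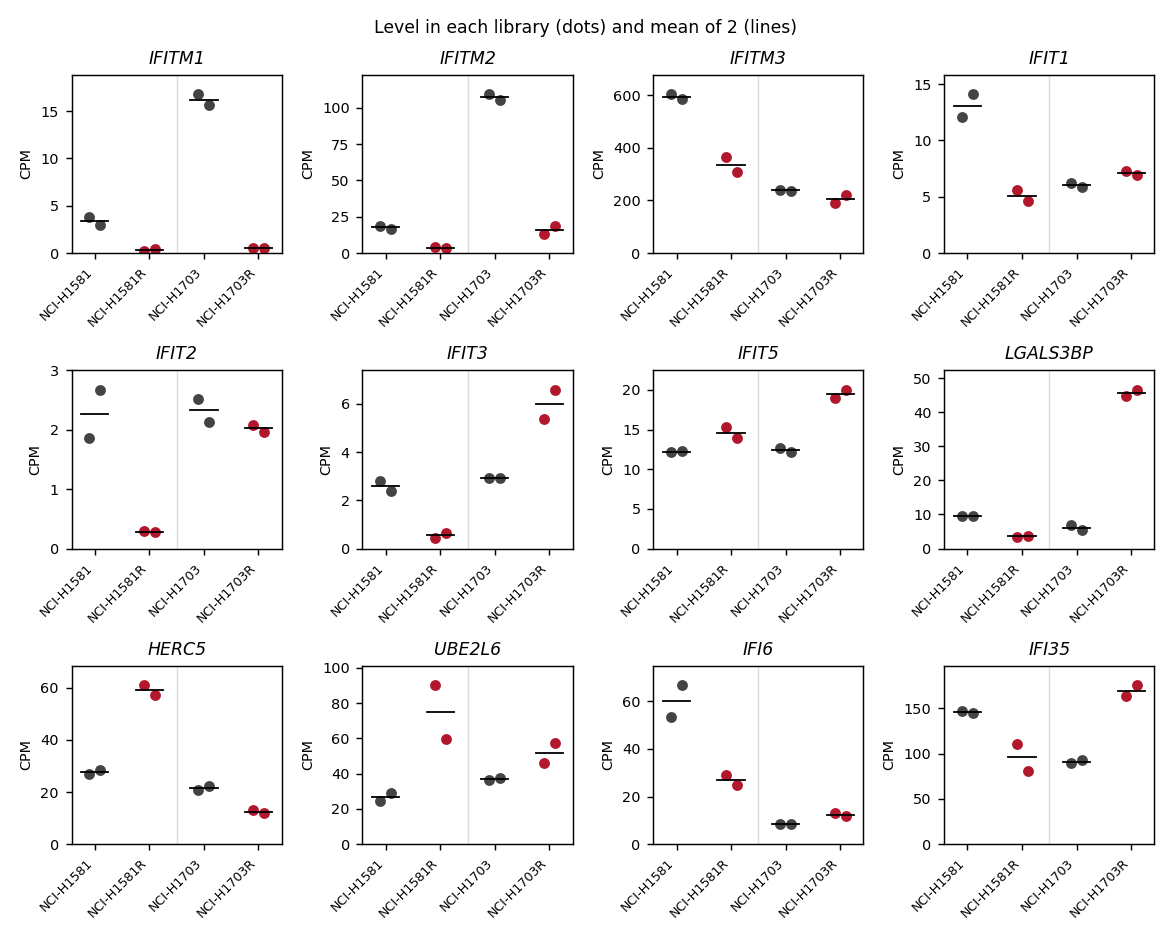
Level of 12 members in CPM (vertical axes from 0, on separate scales) in each library of the 4 variants, with dots for the 2 replicates, black for sensitive and red for resistant, and lines for their mean. IFITM1 and IFITM2 are lower in both resistant variants, while IFIT3, LGALS3BP and IFI6 are lower in NCI-H1581R and higher in NCI-H1703R, and HERC5 shows the reverse order. CPM values were scaled within each line.

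Between the sensitive lines, the levels of many of these genes differed, as did those of other genes. In NCI-H1703, 13 members were higher than in NCI-H1581 and 13 were lower, 30.2% in each direction, against 32.5% and 30.4% of all genes, so the members differed between lines about as often as other genes. IRF1, a transcription factor induced by type II interferon, had the lowest adjusted p of those higher in NCI-H1703 (4.59e-07), with 169 and 215 counts in NCI-H1581 and 3054 and 2847 in NCI-H1703 (log2 fold change 4.01). DTX3L and PARP9, which form a complex of a ubiquitin ligase and an ADP-ribosyltransferase, and PARP14 were higher by 2.38, 1.27 and 1.10. The exons of DTX3L and PARP9 share 139 bases on opposite strands, and the part of this overlap in their values was not tested. DDX60 (3.91), XAF1 (3.77), ISG20 (3.39), IFITM2 (2.61), IFITM1 (2.27) and IRF9 (1.14) were higher too, as were UBE2L6 (0.46) and OAS3 (0.41), and so was GBP1. Lower in NCI-H1703 were BST2, with 149 and 152 counts against 5 and 0, OAS2, with 98 and 118 against 4 and 3, and MX2, with 206 and 256 against 0 and 0. IFI6, IFI44, IFIH1, DDX58, IFITM3, STAT2, IFIT1, IFI35, LGALS3BP and HERC5 were also lower, with log2 fold changes from −2.80 to −0.36. Members that fell in NCI-H1581R were thus found on both sides of this comparison.

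On a scale of level per transcript length, IFITM3 was the highest member in both sensitive lines, with 972 CPM per kb in NCI-H1581 and 390 in NCI-H1703. IFI35 (124) and IFI6 (73.9) came next in NCI-H1581, and IFITM2 (107) and IFI35 (77.2) in NCI-H1703. Summed over the members and scaled to the library total alone, the level was 1142 and 1194 CPM in NCI-H1581 and 857 and 861 in NCI-H1581R. Without IFITM3 the sums were 562 and 614 against 505 and 528. In NCI-H1703 the sums were 1020 and 998 against 994 and 1031 in NCI-H1703R, and without IFITM3 they were 775 and 765 against 798 and 814. IFITM3 made up 50.8% and 48.6% of the sum in NCI-H1581 and 41.1% and 38.7% in NCI-H1581R. The sums of that line thus depend largely on this gene. In NCI-H1703 it made up 24% and 23.4%, and in NCI-H1703R 19.6% and 21%.

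Other genes of the pathway were taken from a list of 53, of which 30 were tested. Of the 22 interferon ligands, 20 had 0 counts in all libraries, IFNL1 had 1 count in a single library, and IFNE had 11, 4, 7 and 3 counts in the NCI-H1703 and NCI-H1703R libraries and 0 in the others. Ligand transcripts were thus not detectable at this depth, apart from these. All 6 receptor subunits were tested. None was called in NCI-H1581R, and IFNGR1 (log2 fold change 0.44, adjusted p = 0.0633) and IL10RB (0.62, adjusted p = 0.014) rose in NCI-H1703R.

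In NCI-H1581R, 3 of the 30 pathway genes rose and 3 fell, 10% in each direction, near the 7.63% and 7.44% of all genes. IKBKE, a kinase that activates interferon regulatory factors, had 650 and 711 counts against 29 and 22 (log2 fold change −4.79 ± 0.31, adjusted p = 0.000299). DHX58, the third RIG-I-like receptor, had 141 and 123 counts against 17 and 23 (−2.78 ± 0.46, adjusted p = 0.0134), and STING1, the adaptor of cytosolic DNA sensing, had 86 and 80 against 12 and 4 (−3.41 ± 0.62, adjusted p = 0.0183). All 3 were lower in each resistant library than in each sensitive one. The kinase JAK1 (0.63, adjusted p = 0.0683) and the negative regulators PIAS1 (0.74, adjusted p = 0.0489) and PTPN6 (1.92, adjusted p = 0.0802) rose.

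In NCI-H1703R, 4 of the 30 rose and 3 fell, 13.3% and 10%, against 7.06% and 7.67% of all genes. With the replicate block 11 rose and 5 fell, 36.7% and 16.7%, against 18.2% and 16.7% of all genes. Besides the receptor subunits, JAK1 (log2 fold change 0.64, adjusted p = 0.032) and PTPN6 (1.12, adjusted p = 0.0478) rose. STING1 had 299 and 221 counts and fell to 47 and 61 (−2.33 ± 0.26, adjusted p = 0.00671). IRF3 fell by 0.61 on the log2 scale (adjusted p = 0.0179), and SOCS3, an inhibitor of Janus kinases, fell by 1.39 (adjusted p = 0.00585). STING1, JAK1 and PTPN6 were thus called in the same direction in both lines, an overlap that was not counted over all genes. IKBKE had 1043 and 965 counts against 1194 and 1317, and DHX58 had 495 and 438 against 759 and 613, and neither was called in NCI-H1703R, although both were called higher with the replicate block (adjusted p = 0.0567 and 0.0173). For both the interaction was called, with differences in log2 fold change of 5.01 and 3.24 (adjusted p = 2.47e-05 and 0.00214).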

How the data were processed

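RNA from 4 variants of established cell lines, with 2 replicates each, was sequenced, and the deposited table holds estimated counts per gene as whole numbers, not normalised. The authors made these with Salmon on GRCh38 and imported them with tximport, and the submitters' processing notes also name cutadapt. Versions, transcript annotation, tximport scaling and strandedness are not given in the sources used here, so overlapping genes and close paralogs are uncertain. All 8 value columns were assigned from labels, and 0 were left over.

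Members and lists were chosen with earlier results of these data known, and some genes of the pathway and marker lists are not reported here. Named were members called in either line, a few fixed members (STAT2, IRF9, ISG15, MX1, IFIT1 and OAS1), the 3 with the highest level per length in each line and called pathway genes. Symbols and positions came from GENCODE 44, in which DDX58 is RIGI, and promoters from RefSeq on GRCh38.p14.

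Genes with at least 10 counts in total were fitted with edgeR 4.0.16 in R 4.3.3 (TMM, quasi-likelihood test, two-sided, bias-adjusted quasi-dispersions) on each line's 4 libraries, on the 4 sensitive libraries, or on all 8 for the interaction. Calls required a Benjamini-Hochberg adjusted p under 0.1. Standard errors were the log2 fold change divided by the square root of the F statistic. CPM used TMM factors within a line, except for sums over the members, which were divided by the library total, and CPM per kb the length of the canonical transcript. Ratios of small counts carry exact 95% binomial intervals. The fits were tested on simulated data.

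The replicate block treated same-numbered replicates as pairs, because per the labels the procedure was repeated for the second replicate. The main fits and all other alternatives left the replicate number out. Differences between replicates were correlated between variants, across 9716 genes that had 100 counts or more in each library. Pearson r was 0.284 within NCI-H1581 and 0.553 within NCI-H1703, and between lines it ranged from −0.566 to 0.0827. The −0.566, between the resistant variants, was as large in size as the values within a line. These correlations therefore do not show that same-numbered replicates were pairs. No replicate was a copy of another, as counts of each pair differed by more than sampling allows (chi-square divided by its degrees of freedom, 23.3 to 96.8). Alternatives were DESeq2 1.42.0, RLE normalisation, no filter, at least 10 counts in every library, the replicate block, a threshold of 0.05, a joint fit of 8 libraries, leaving out each library and, added after seeing the data, the older quasi-dispersions.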

Additional observations from a re-analysis of the deposited data

Results flagged for a closer look

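The change with resistance differed between NCI-H1581 and NCI-H1703 for 13 members by the interaction test (edgeR's quasi-likelihood test, adjusted p under 0.1). The difference in log2 fold change, NCI-H1703 minus NCI-H1581, was 1.52 for DDX58, 5.04 for DDX60, 1.57 for IFIT1, 2.75 for IFIT2, 3.20 for IFIT3, 1.66 for IFI6, 1.48 for IFI35, 4.86 for IFI44, 4.29 for LGALS3BP and 0.84 for PLSCR1. It was 10.13 for IFIH1, a value that depends on the fit because NCI-H1581R had 0 counts. The difference was −1.01 for UBE2L6 and −1.92 for HERC5. Adjusted p-values ranged from 3.89e-05 (LGALS3BP) to 0.0742 (UBE2L6).

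Among the other genes of the pathway, 5 differed likewise, with −0.51 for the receptor subunit IFNAR1, 1.11 for IL10RB, 5.01 for IKBKE, 3.24 for DHX58 and −1.66 for SOCS3. IFNAR1 was called in neither line on its own (log2 fold change 0.38 in NCI-H1581R and −0.11 in NCI-H1703R, adjusted p of the interaction 0.0875).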

How the results depend on the processing

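Among the members called in NCI-H1581R or NCI-H1703R, no change with resistance reversed direction under any alternative run. With the older quasi-dispersions, chosen after seeing the data, 16 members were lower in NCI-H1581R. The number called higher in NCI-H1703R fell from 8 to 5 with a joint fit of all 8 libraries and to 4 at an adjusted p under 0.05. With at least 10 counts in every library, 12 members were lower in NCI-H1581R, since fewer members were tested. Leaving out each library in turn gave 0 to 3 members higher and 9 to 19 lower in NCI-H1581R, 1 to 6 higher and 2 to 4 lower in NCI-H1703R, 13 to 16 higher and 12 to 14 lower in sensitive NCI-H1703, and 10 to 14 in the interaction. A variant with 1 library left was assumed to vary like the other. Whether members lost calls more often than other genes in these fits was not counted. The libraries whose loss moved a count by over 1.5 times were both NCI-H1581 and both NCI-H1703 replicates and NCI-H1703R replicate 2. The cause was not tested.

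With the replicate block, 2 members were higher and 18 lower in NCI-H1581R, 11 higher and 6 lower in NCI-H1703R, 14 higher and 13 lower in sensitive NCI-H1703, and 15 were called in the interaction. DESeq2 called 2 and 18, 7 and 5, 13 and 13, and 17. Shares of all genes called were not counted for DESeq2, nor with the block between the sensitive lines. Genes below about 10 counts, such as ISG15 and GBP2, limit what this depth can show.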
